A study of Homo sapiens with 12 samples.

Results

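The Integrator subunit genes INTS1 to INTS10 were followed on expression arrays of 2 Ewing sarcoma cell lines treated with THZ531. They are 10 genes of 16913 with a usable value in the deposited table, and all 10 were among the 10148 genes bright enough to be tested (mean log2 signal of at least 5.94). The genes were listed by name, and INTS6 was chosen by its measured log2 difference from DMSO at 100 nM, a deep fall in these data. The values of INTS6 are therefore given as a description with no test, and counts of called genes cover the other 9 genes.

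Ewing sarcoma is a tumour of bone and soft tissue that carries a fused transcription factor, most often EWS-FLI1, and A673 and TC32 are established lines of it. THZ531, written THZ_5_31_1 in the sample labels, covalently inhibits the kinases CDK12 and CDK13, which act with cyclin K on elongating RNA polymerase II. Cells of each line received the solvent DMSO, THZ531 at 100 nM or THZ531 at 500 nM, all for 6 hours, which gave 6 groups of 2 arrays. All 12 cultures were grown in the same serum medium, and no other agent or genetic change is named for any group. The labels call the 2 arrays of a group biological replicates without saying how the cultures were separated, so the spread behind each p-value is that between these samples and may be technical. Each line stands for a single tumour.

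Integrator is a large complex that travels with RNA polymerase II. Its cleavage module, built on INTS4, INTS9 and the endonuclease INTS11, cuts nascent transcripts, which forms the 3' ends of spliceosomal small nuclear RNAs and ends transcription at polymerases paused near start sites. Its phosphatase module holds the enzyme PP2A through INTS5, INTS6 and INTS8 and removes phosphates that elongation kinases place on the polymerase. INTS1, INTS2 and INTS7 form the backbone, INTS10 lies in an arm with INTS13, INTS14 and INTS15, and INTS3 also joins the single-stranded DNA binding proteins NABP1 and NABP2 and INIP in a complex of DNA repair.

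The upstream sequences of 3 of the genes are shown because they are those of the deepest fall (INTS6), of the next gene in A673 (INTS7) and of the gene with the smallest differences from DMSO in the values as deposited (INTS1). Each line gives the 250 bases before the RefSeq start site of the gene on build GRCh38.p14, 5' to 3' on the strand of the gene. Capitals mark any of 5 motifs searched on both strands: the TATA box TATAAA, the GC box GGGCGG, the CCAAT box CCAAT, the ETS core CCGGAAG and the GGAA repeat GGAAGGAA.
INTS6, chr13:51453037-51453286, - strand: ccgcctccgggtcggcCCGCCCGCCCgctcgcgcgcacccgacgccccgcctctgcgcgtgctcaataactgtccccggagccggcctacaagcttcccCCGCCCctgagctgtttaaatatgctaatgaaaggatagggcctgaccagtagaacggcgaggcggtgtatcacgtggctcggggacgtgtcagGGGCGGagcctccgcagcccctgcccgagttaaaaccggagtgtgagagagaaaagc
INTS7, chr1:212035558-212035807, - strand: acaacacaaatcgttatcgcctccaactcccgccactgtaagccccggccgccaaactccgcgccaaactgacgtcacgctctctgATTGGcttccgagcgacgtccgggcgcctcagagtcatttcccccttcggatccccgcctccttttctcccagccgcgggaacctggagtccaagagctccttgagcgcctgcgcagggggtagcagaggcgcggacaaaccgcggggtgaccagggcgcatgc
INTS1, chr7:1504390-1504639, - strand: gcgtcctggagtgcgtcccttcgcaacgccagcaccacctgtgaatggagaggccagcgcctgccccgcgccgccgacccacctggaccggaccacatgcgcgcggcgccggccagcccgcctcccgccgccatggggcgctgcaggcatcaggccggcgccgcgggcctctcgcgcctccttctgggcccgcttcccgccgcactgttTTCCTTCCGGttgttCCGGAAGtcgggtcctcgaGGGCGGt

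Among the 10 genes, 6 had an entry in the RefSeq promoter table, and INTS5, INTS8, INTS9 and INTS10 had none. The INTS6 window held 4 GC box matches, of which 2 overlap each other, and none of the other motifs. The INTS7 window held 1 CCAAT box match. The INTS1 window held 2 ETS core matches, 1 of them overlapping the only GGAA repeat match among the 6 genes, and 1 GC box match. The TATA box matched in 0 of the 6 windows and in 11.1% of 27305 RefSeq windows of the same length. The GC box matched in 4 of 6 windows (42.3% of all), the CCAAT box in 3 (33.0%), the ETS core in 3 (8.82%) and the GGAA repeat in 1 (2.99%). The GC content was 74.0% for INTS1, 52.0% for INTS2, 65.2% for INTS3, 62.8% for INTS4, 66.0% for INTS6 and 64.4% for INTS7. The median of all windows was 58.0%, and the shares were not matched for GC content. A match describes letters in the window and is not evidence of binding.

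The values are log2 signals as the authors deposited them, and array medians over the tested genes ran from 8.87 in A673 with DMSO down to 6.87 in TC32 at 500 nM. Between the 2 arrays of a group the median gene differed by at most 0.12, except in A673 at 500 nM, where replicate 1 lay 0.52 above replicate 2. A lower signal in such bulk RNA can come from fewer cells, from less RNA per cell or from the handling and scaling of the arrays. These cannot be told apart here. Changes are therefore given as deposited and, where stated, relative to the array medians, that is, after subtracting from each array its median over all 16913 genes. Those medians ran from 7.32 in A673 with DMSO down to 5.68 in TC32 at 500 nM. In that last group both medians (5.74 and 5.68) lay under 5.94, the level set for testing a gene. Centring took the shared shift out and left the median tested gene 0.10 above DMSO in A673 at either dose, and 0.13 and 0.15 above it in TC32. Of 10 listed markers of Ewing sarcoma 9 had values, and 8 of these, CD99 among them, had a mean at or above 5.94 in every group. So did 1 of 4 haematopoietic, 2 of 5 epithelial, 0 of 4 endothelial and 1 of 4 neural markers with values. Reaching 5.94 therefore does not by itself mark a cell type. FLI1, the ETS partner in the fusion, was under that level in TC32 at 500 nM (mean 5.66). The summed signal of the Ewing sarcoma markers was between 14.44 and 15.26 (log2) by group. That of each of the haematopoietic, epithelial, endothelial and neural marker lists was at most 9.54, summed over 4 or 5 genes rather than 9.

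INTS6 had the lowest treated levels relative to its DMSO level of the 10 genes in both lines at both doses. Its DMSO arrays read 9.68 and 9.63 (log2) in A673, the 100 nM arrays 6.43 and 6.22 and the 500 nM arrays 6.69 and 6.06. The TC32 arrays read 9.15 and 9.03 under DMSO, 6.33 and 6.39 under 100 nM, then 6.45 and 6.34 under 500 nM. All 8 treated arrays lay between 6.06 and 6.69, more than 2 log2 units below every DMSO array, and the 4 treated groups overlapped with one another.

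The INTS6 difference from DMSO in A673 was -3.33 ± 0.21 (log2, SE of the limma fit, n = 2 against 2) at 100 nM, a 10.0-fold lower signal, and -3.28 ± 0.21 at 500 nM, a 9.69-fold lower signal. In TC32 it was -2.73 ± 0.21 at 100 nM (6.63-fold lower) and -2.70 ± 0.21 at 500 nM (6.48-fold lower). The 4 treated means of INTS6 were between 6.32 and 6.39, not far above 5.94, so the folds may be understated. Ordered by fitted difference among all 10148 tested genes, INTS6 was number 1 from the bottom in A673 at 100 nM and number 11 in TC32 at 100 nM. At 500 nM it was number 52 in A673 and number 297 in TC32. Relative to the array medians the 4 differences were -2.71 and -2.45 in A673 and -2.52 and -1.90 in TC32. These values chose the gene or share arrays with those that did, and they are not tested.

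**Figure D1:**
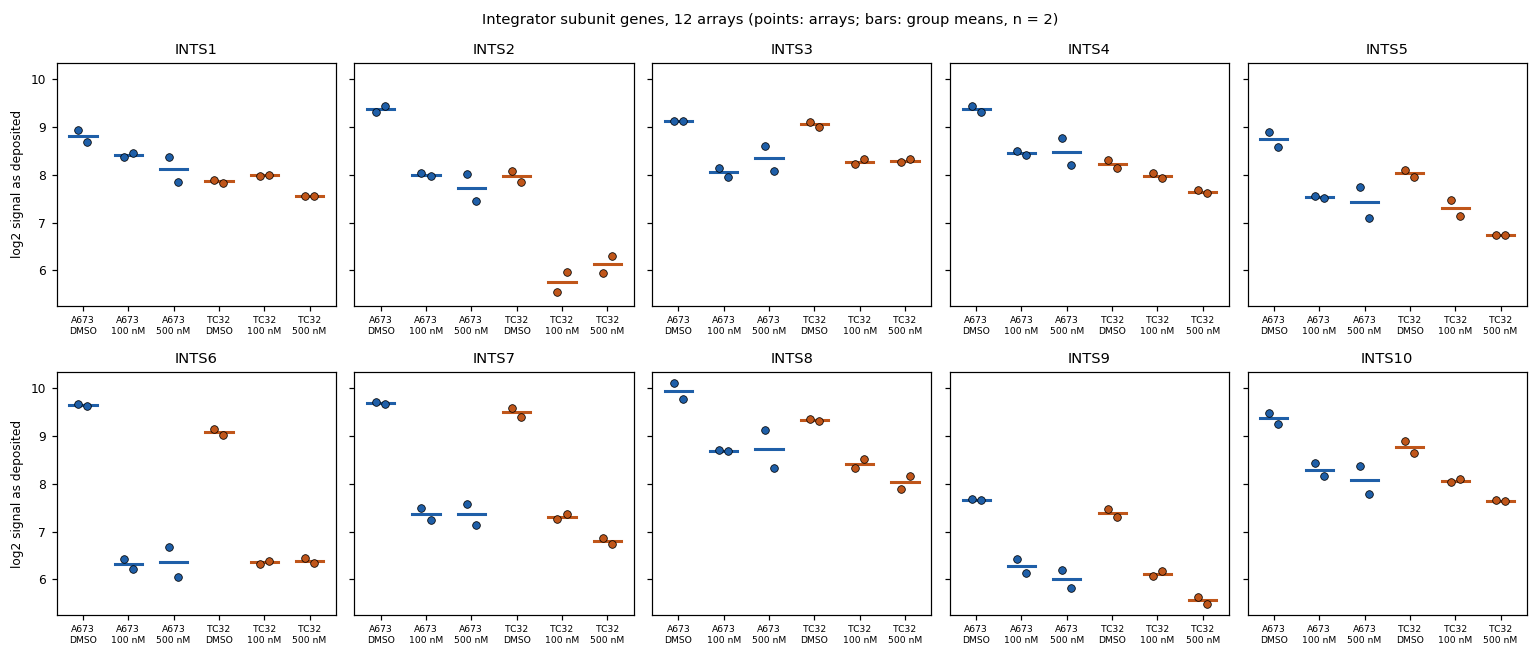
Log2 signal as deposited (y axis) of the 10 Integrator subunit genes on each of the 12 arrays, by cell line and treatment (x axis); points are arrays and bars are means of 2 arrays, blue for A673 and orange for TC32. The 8 treated INTS6 points sit between 6.06 and 6.69, and in A673 at 500 nM replicate 1 lies above replicate 2 in all 10 panels.

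Across the other 9 genes, levels at 100 nM were below DMSO for most subunits in both lines. By limma with Benjamini-Hochberg adjustment over all tested genes, 8 of 9 fell in A673, where 58.7% of all tested genes were called lower, and 7 of 9 fell in TC32, where 20.9% were. The median difference of the 9 genes was -1.21 in A673 and -0.78 in TC32, beside -0.52 and -0.07 for all tested genes. None of the 9 rose at 100 nM in either line by limma, also at an unadjusted p under 0.05, while 1.31% of all genes rose in A673 and 5.56% in TC32. The count in TC32 was 4 without DMSO replicate 1 of that line, since INTS3, INTS5 and INTS10 then missed the threshold. After centring, 8 of 9 were lower and 0 higher in A673 (17.1% and 24.4% of all genes), and 7 were lower and 1, INTS1, was higher in TC32 (21.2% and 30.6%). The centred A673 count was 5 without 100 nM replicate 2 of that line, since INTS3, INTS4 and INTS10 then missed the threshold. The centred TC32 count of higher genes was 0 without either DMSO array or without 100 nM replicate 2 of that line.

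At 500 nM all 9 genes fell in A673 (82.5% of all tested genes called lower) and 8 of 9 in TC32 (62.9%). The median differences were -1.29 in both lines, beside -0.73 and -0.64 for all tested genes. None rose in either line, also at an unadjusted p under 0.05 by limma, beside 0.946% of all genes called higher in each. After centring, 6 were lower and 0 higher in A673 (27.4% and 29.6% of all genes), and in TC32 6 were lower (30.8%) and 1 was higher (41.3%). The centred TC32 count of lower genes was 4 without 500 nM replicate 1, since INTS8 and INTS10 then missed the threshold. Both doses were compared with the same DMSO arrays, so the 2 sets of differences are not independent of each other.

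**Figure D2:**
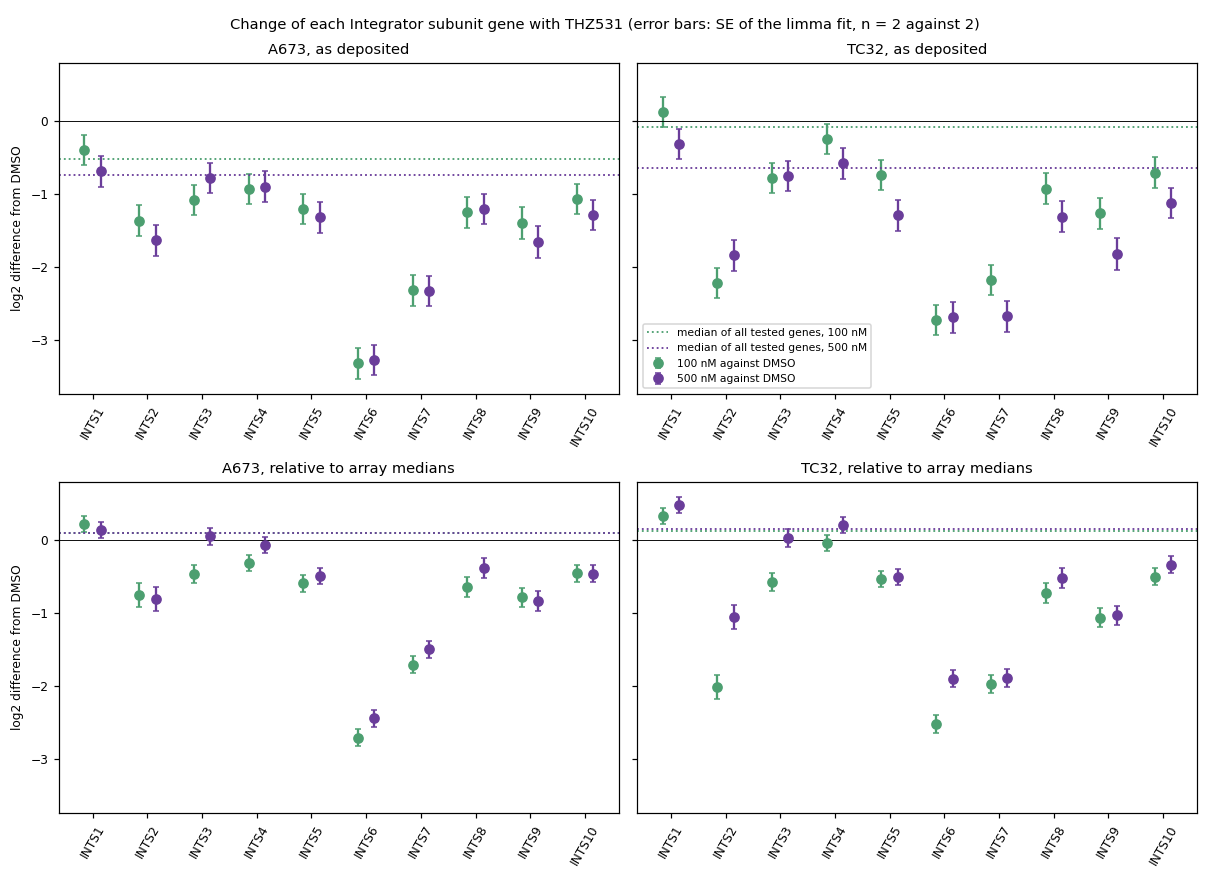
Fitted log2 difference from DMSO (y axis) of each Integrator subunit gene (x axis) at 100 nM (green) and 500 nM (purple), for A673 (left) and TC32 (right), as deposited (top) and relative to the array medians (bottom). Error bars are standard errors of the limma fit (n = 2 against 2) and dotted lines are medians of all tested genes; INTS6 is lowest in every panel and INTS1 is the highest in every panel.

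The backbone genes differed widely, INTS7 and INTS2 having fitted falls of 1.36 or more in each comparison as deposited and INTS1 the smallest differences among the 10. The A673 signals (log2) of INTS7 were 9.72 and 9.67 under DMSO, 7.50 and 7.24 under 100 nM, then 7.58 and 7.15 under 500 nM. Its TC32 signals were 9.58 and 9.41 under DMSO, 7.26 and 7.37 under 100 nM, then 6.87 and 6.75 under 500 nM. Every treated array lay below every DMSO array, and in A673 the 2 doses overlapped, while in TC32 both 500 nM arrays were the lower ones. INTS7 fell by 2.33 ± 0.21 in A673 at 100 nM (5.01-fold lower, adjusted p 2.63e-26) and by 2.18 ± 0.21 in TC32 (4.53-fold, adjusted p 2.45e-23). At 500 nM it fell by 2.33 (5.03-fold) and 2.68 (6.42-fold). Its changes relative to the array medians were between -1.50 and -1.97 and were called in all 4 comparisons.

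INTS2, the backbone partner of INTS1 and INTS7, lay lower in TC32 than in A673 under every treatment. Its A673 signals (log2) were 9.31 and 9.44 under DMSO, 8.03 and 7.98 under 100 nM, then 8.02 and 7.44 under 500 nM. The TC32 signals of INTS2 were 8.08 and 7.85 under DMSO, 5.54 and 5.96 under 100 nM, then 5.94 and 6.31 under 500 nM. All treated TC32 arrays were below all A673 arrays. INTS2 fell by 1.36 ± 0.21 in A673 at 100 nM (2.57-fold lower, adjusted p 9.61e-10) and by 2.22 ± 0.21 in TC32 (adjusted p 3.63e-24), at least 4.07-fold when counted from the level of 5.94 that its TC32 mean lay under. At 500 nM the falls were 1.64 in A673 (3.11-fold) and 1.84 in TC32 (3.59-fold).

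The effect of 100 nM on INTS2 differed between the lines by -0.85 (TC32 minus A673) as deposited, which did not pass the limma test (adjusted p 0.0862). On centred arrays that difference was -1.27, with TC32 at -2.01 and A673 at -0.75, and it passed (adjusted p 0.00407). For the 100 nM effect, 0.0887% of all genes were called lower and 2.22% higher in TC32 than in A673 as deposited, and 1.76% and 0.857% on centred arrays. For no other gene of the 9 was a difference between the lines called by limma in the 100 nM effect, on either scale, and for none in the 500 nM effect (1.28% of all genes lower and 0.552% higher as deposited, 6.75% and 3.04% centred). At an unadjusted p under 0.05 the as-deposited test of the 100 nM difference held 1 gene lower and 1 higher, and that of the 500 nM difference held 0. On centred arrays the 500 nM difference held 1 lower and 1 higher at that level. Shares of all genes are not given at an unadjusted p, nor for fits with 1 array left out. Such counts can therefore not be set against all genes. Without replicate 1 or replicate 2 of the A673 500 nM arrays, 3 genes were called higher and INTS2 lower in the 100 nM difference.

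INTS1, the largest backbone subunit, had the smallest difference in each comparison with DMSO as deposited. Its A673 signals (log2) were 8.93 and 8.68 under DMSO, 8.37 and 8.46 under 100 nM, then 8.38 and 7.86 under 500 nM. The TC32 signals of INTS1 were 7.90 and 7.83 under DMSO, 7.98 and 8.01 under 100 nM, then 7.56 and 7.55 under 500 nM. The TC32 arrays at 100 nM were thus the highest of that line. INTS1 fell in A673 at 500 nM (-0.69 ± 0.21, adjusted p 0.00173), a call that ended without DMSO replicate 1 of that line (adjusted p 0.0614). The other differences from DMSO were -0.39 in A673 at 100 nM (adjusted p 0.0886), 0.13 in TC32 at 100 nM (0.744) and -0.31 in TC32 at 500 nM (0.181). With either A673 500 nM array left out, the values of -0.39 and -0.31 were called lower at the same size. Those arrays are in neither comparison but enter the shared spread, so the missing calls do not show that INTS1 was unchanged. On centred arrays INTS1 lay above DMSO in all 4 comparisons, by 0.23 and 0.14 in A673, which were not called, and by 0.34 and 0.48 in TC32, which were called (adjusted p 0.0155 and 0.000633). The centred call at 100 nM ended without TC32 DMSO replicate 1 (adjusted p 0.0698), DMSO replicate 2 (0.0791) or 100 nM replicate 2 (0.115).

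INTS5 and INTS8, which with INTS6 make up the phosphatase module, had smaller differences from DMSO than INTS6 in all 4 comparisons. INTS6 was chosen for its deep fall at 100 nM, so this order follows in part from that choice, and it was not tested. INTS5 means under DMSO, 100 nM and 500 nM were 8.74, 7.54 and 7.42 in A673 and 8.04, 7.30 and 6.74 in TC32. INTS8 had means of 9.95, 8.69 and 8.74 in A673 and of 9.34, 8.42 and 8.03 in TC32. No treated array of either gene reached the level of a DMSO array of its line. In A673 at 100 nM, INTS5 fell by 1.21 ± 0.21 (2.31-fold, adjusted p 7.59e-08) and INTS8 fell by 1.25 ± 0.21 (2.38-fold, adjusted p 2.26e-08). In TC32 at that dose INTS5 fell by 0.74 (adjusted p 0.0025) and INTS8 fell by 0.92 (adjusted p 8.35e-05). The TC32 call of INTS5 ended without DMSO replicate 1 (adjusted p 0.0866) or 100 nM replicate 2 (0.151) of that line. Both also passed at 500 nM, with falls between 1.21 and 1.32, and relative to the array medians all 8 differences were called lower, between -0.38 and -0.72. The centred calls of INTS8 at 500 nM ended without A673 DMSO replicate 1 (adjusted p 0.0685) or 500 nM replicate 2 (0.273), and without TC32 500 nM replicate 1 (0.0603).

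In the cleavage module, INTS9, the noncatalytic partner of the endonuclease, had lower values against DMSO than INTS4, the scaffold of the module, in all 4 comparisons, a difference between genes that was not tested. The A673 signals (log2) of INTS9 were 7.69 and 7.66 under DMSO, 6.42 and 6.13 under 100 nM, then 6.20 and 5.82 under 500 nM. Its TC32 signals were 7.47 and 7.30 under DMSO, 6.07 and 6.17 under 100 nM, then 5.63 and 5.49 under 500 nM. The treated arrays were all below the DMSO arrays, and the 2 doses overlapped in A673 but not in TC32. INTS9 fell by 1.40 ± 0.22 in A673 (2.64-fold, adjusted p 1.95e-09) and 1.27 ± 0.22 in TC32 (2.40-fold, adjusted p 1.01e-07) at 100 nM, and by 1.66 (3.16-fold) and 1.82 (at least 2.72-fold, since the mean lay under 5.94) at 500 nM.

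INTS4 means under DMSO, 100 nM and 500 nM were 9.39, 8.46 and 8.49 in A673 and 8.23, 7.98 and 7.65 in TC32. It fell in A673 by 0.93 ± 0.21 at 100 nM (adjusted p 4.72e-05) and 0.90 at 500 nM, and in TC32 by 0.58 at 500 nM (adjusted p 0.0104), whereas the value at 100 nM in TC32 was -0.25 (adjusted p 0.464). The TC32 call at 500 nM ended without TC32 DMSO replicate 1 (adjusted p 0.134) or 500 nM replicate 2 (0.0835). On centred arrays INTS4 was called lower only in A673 at 100 nM (-0.31, adjusted p 0.0273) among these 4 comparisons, a call that ended without A673 DMSO replicate 2 (0.137) or either 100 nM array (0.11 and 0.131), and its TC32 value at 500 nM turned to 0.22 (adjusted p 0.083). INTS4 has near-identical pseudogene copies, and a probe set annotated to INTS4 together with 2 of them carried the same values, so its signal can include theirs.

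INTS11, the endonuclease itself and no member of the 10, was at -0.39 (adjusted p 0.0911) and -0.53 (0.0152) in A673 at 100 nM and 500 nM, and at 0.02 (0.971) and -0.40 (0.0783) in TC32. On centred arrays the 4 values of INTS11 were above 0, between 0.22 and 0.39, and those at 500 nM were called higher (adjusted p 0.0361 in A673 and 0.00648 in TC32). CPSF3 and CPSF2 encode the corresponding endonuclease and its partner in the complex that cleaves messenger RNA precursors. At 100 nM CPSF3 fell by 1.10 in A673 and 0.94 in TC32, and CPSF2 fell by 1.31 and 1.21, beside -1.40 and -1.27 for INTS9. These differences between genes were not tested.

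INTS3, the subunit shared with the DNA repair complex, fell at 100 nM, and its mean was no lower at 500 nM. Its A673 signals (log2) were 9.13 and 9.12 under DMSO, 8.14 and 7.96 under 100 nM, then 8.61 and 8.09 under 500 nM. The TC32 means of INTS3 were 9.05, 8.28 and 8.30 in that order. The DMSO arrays were the highest in both lines. INTS3 fell by 1.08 ± 0.21 in A673 (2.11-fold, adjusted p 2e-06) and by 0.78 ± 0.21 in TC32 (1.71-fold, adjusted p 0.00133) at 100 nM. The TC32 call ended without DMSO replicate 1 (adjusted p 0.0561) or 100 nM replicate 1 (0.0545) of that line. The centred A673 value at 100 nM was -0.46 (adjusted p 0.00419), and it was not called without 100 nM replicate 2 (0.0631). At 500 nM it fell by 0.78 and 0.75 as deposited, but relative to the array medians the 500 nM values were 0.06 (adjusted p 0.701) and 0.04 (0.781), on the other side of DMSO.

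INTS10, of the arm, had means under DMSO, 100 nM and 500 nM of 9.37, 8.30 and 8.08 in A673 and of 8.77, 8.07 and 7.65 in TC32. INTS10 fell by 1.07 ± 0.21 in A673 (2.10-fold, adjusted p 2.35e-06) and by 0.70 ± 0.21 in TC32 (1.63-fold, adjusted p 0.00425) at 100 nM, and by 1.29 and 1.12 at 500 nM. The TC32 call at 100 nM ended without DMSO replicate 1 (adjusted p 0.161) or 100 nM replicate 1 (0.0785) of that line. It was also called lower relative to the array medians in all 4 comparisons, at -0.45 and -0.46 in A673 and -0.50 and -0.33 in TC32. Of these, the A673 call at 100 nM ended without 100 nM replicate 2 (adjusted p 0.108), and the TC32 call at 500 nM without DMSO replicate 1 (0.18) or 500 nM replicate 1 (0.0727).

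The step from 100 nM to 500 nM was small for these genes in A673. As deposited, limma called 0 of the 9 genes in A673, also at an unadjusted p under 0.05, where 26.7% of all tested genes were lower and 0.897% higher at 500 nM. The count moved with the 500 nM arrays, which are offset from each other: without replicate 1 of them 6 genes were lower, and without replicate 2 there were 2 higher. In TC32 3 of 9 were lower (55.5% of all genes, and 1.09% were higher), namely INTS5 (-0.56, adjusted p 0.015), INTS9 (-0.56, 0.0207) and INTS7 (-0.50, 0.0302). The TC32 count was 0 without 100 nM replicate 1 or either 500 nM array of that line and 1 without 100 nM replicate 2, and it was 7 without either A673 500 nM array. The shares of all genes given here belong to the fit of all arrays. None is given for the fits with 1 array left out, where calls among all genes can move too. The counts of those fits can therefore not be set against all genes, and nothing is concluded from them about these 9 genes in particular. INTS6 means at 500 nM minus those at 100 nM were 0.05 in A673 and 0.03 in TC32. With each array left out in turn these differences ranged from -0.26 to 0.37 in A673 and from -0.022 to 0.09 in TC32. The sign of this INTS6 step is therefore not settled.

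After centring, 0 of the 9 genes were called lower by limma at 500 nM than at 100 nM in either line, also at an unadjusted p under 0.05 (25.1% of all genes in A673 and 29.8% in TC32). INTS3 was higher at 500 nM by 0.52 in A673 (adjusted p 0.00172; 10.4% of all genes were called higher) and by 0.61 in TC32 (adjusted p 0.000178; 29.1% of all genes). INTS2 was higher by 0.96 in TC32 (adjusted p 3.06e-05), from a 100 nM mean under 5.94. INTS6 means differed by 0.27 in A673 and 0.62 in TC32 on this scale, the 500 nM mean being the higher. As deposited its treated means were between 6.32 and 6.39, not far above 5.94.

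**Figure D3:**
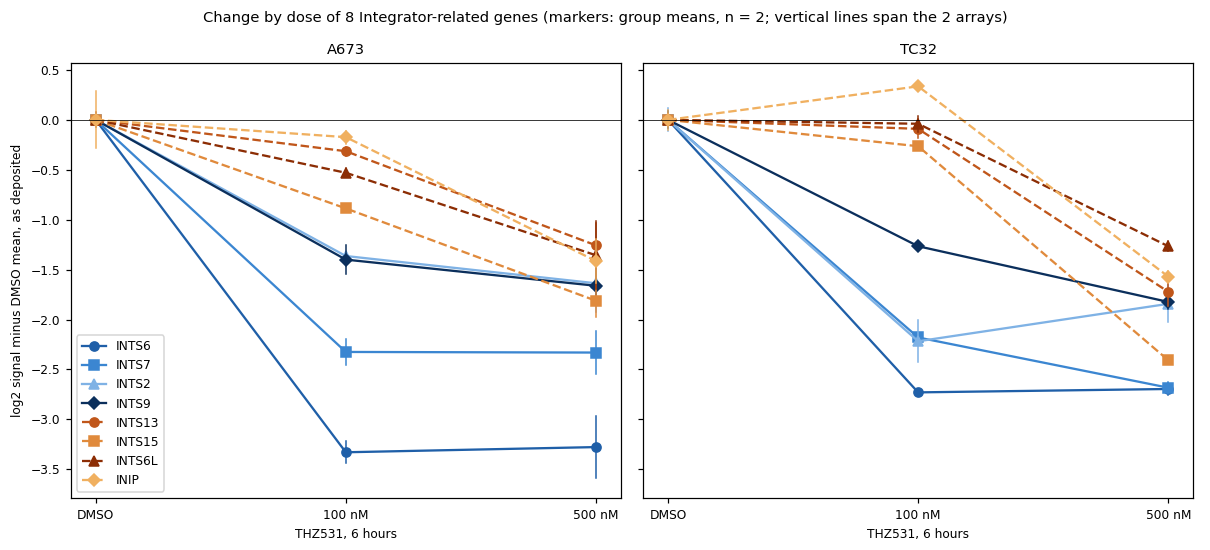
Log2 signal minus the DMSO mean of the line (y axis, as deposited) with DMSO, 100 nM and 500 nM THZ531 (x axis) in A673 (left) and TC32 (right); markers are means of 2 arrays and vertical lines span the arrays. INTS6, INTS7, INTS2 and INTS9 (solid) lie at -1.27 or lower at 100 nM, while INTS13, INTS15, INTS6L and INIP (dashed) lie between -0.89 and 0.34 there and between -1.26 and -2.41 at 500 nM; the 8 genes were chosen after their values were seen.

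The other genes of the complex and its partners came from a list of 16, of which 13 were tested. SEM1 had no probe set annotated to it alone, and INTS12 and INTS14 had only entries with at most 2 decimals, which were not used here. At 100 nM 7 of 13 fell in A673 and 2 of 13 in TC32, and 0 rose in either line by limma, also at an unadjusted p under 0.05. Among all tested genes 58.7% fell and 1.31% rose in A673, and 20.9% and 5.56% in TC32, so the shares of the list that fell were no larger than these. The list median was -0.46 in A673 and -0.04 in TC32, beside -0.52 and -0.07 for all tested genes. At 500 nM 12 of 13 fell in A673 and 10 of 13 in TC32, with medians of -0.93 and -0.99, beside -0.73 and -0.64, while 82.5% and 62.9% of all genes fell. The A673 count at 100 nM was 3 without DMSO replicate 1 or either 100 nM array of that line, and 11 without either of its 500 nM arrays. On centred arrays 2 were lower and 4 higher in A673 and 2 lower and 5 higher in TC32 at 100 nM, where 17.1% of all genes were lower and 24.4% higher in A673 and 21.2% and 30.6% in TC32. On that scale 6 were lower and 3 higher in either line at 500 nM, beside 27.4% and 29.6% of all genes in A673 and 30.8% and 41.3% in TC32.

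NABP1, a single-stranded DNA binding protein of the INTS3 complex, had the lowest value of this list at 100 nM, at -1.87 in A673 (adjusted p 1.99e-16) and -2.00 in TC32 (adjusted p 1.57e-18, with the mean under 5.94). INIP, the small subunit of the same complex, had the highest, at -0.17 in A673 (adjusted p 0.442) and 0.34 in TC32 (0.261). WDR73, a partner of the INTS9 and INTS11 pair, was the only other gene of the list that fell in TC32 at 100 nM (-1.97, adjusted p 2.88e-19), and in A673 it fell by 1.65. Between 100 nM and 500 nM INIP fell by 1.24 in A673 (adjusted p 4.03e-08) and 1.91 in TC32 (8.17e-19).

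The lowest value of the list at 500 nM was that of INTS15, an arm subunit, at -1.81 in A673 (3.51-fold lower) and -2.41 in TC32, at least 4.57-fold as its mean there lay under 5.94. The TC32 signals (log2) of INTS15 were 8.17 and 8.11 under DMSO, 7.87 and 7.88 under 100 nM, then 5.70 and 5.76 under 500 nM. The step from 100 nM to 500 nM was -2.14 (adjusted p 1.67e-23), so most of its change in TC32 lay between the doses. INTS13, which joins INTS14 and INTS10 in the arm, was at -0.31 (adjusted p 0.161) and -0.09 (0.83) at 100 nM and fell by 1.26 and 1.72 at 500 nM in A673 and TC32. PPP2R1A, the scaffold of PP2A, had the highest value at 500 nM, at -0.38 in A673 (adjusted p 0.0506) and 0.03 in TC32 (0.878).

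INTS6L, the paralogue of INTS6, stayed nearer to its DMSO level at 100 nM. The A673 signals (log2) of INTS6L were 7.26 and 7.11 under DMSO, 6.70 and 6.61 under 100 nM, then 6.17 and 5.49 under 500 nM. Its TC32 signals were 6.07 and 6.00, then 5.91 and 6.07, then 4.82 and 4.71. Only at 500 nM did every TC32 array of INTS6L lie below DMSO. INTS6L fell by 0.53 ± 0.23 in A673 at 100 nM (adjusted p 0.034), beside -3.33 for INTS6, and was at -0.04 in TC32 (adjusted p 0.934), beside -2.73. At 500 nM it fell by 1.36 and 1.27 and its means there were under 5.94 in both lines. In TC32 the DMSO mean of INTS6L was already near 5.94, at 6.03, beside 9.09 for INTS6. Counted from 5.94, the INTS6L fall in TC32 at 500 nM was at least 1.06-fold. The difference between the paralogues was not tested, and it follows in part from the choice of INTS6 for its deep fall at 100 nM.

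Of 20 genes of small nuclear RNA transcription and export, 18 were tested. At 100 nM 13 fell and 0 rose in A673, and 7 fell and 3 rose in TC32, beside 58.7% of all tested genes lower and 1.31% higher in A673 and 20.9% and 5.56% in TC32. The TC32 count of falls was 3 without DMSO replicate 1 and 4 without 100 nM replicate 2 of that line, and 1 gene rose without DMSO replicate 2 or 100 nM replicate 1. The lowest was ICE2, a subunit of the little elongation complex, at -2.10 in A673 (adjusted p 1.2e-21) and -2.08 in TC32 (2.65e-21). The highest was SNAPC3, a subunit of the small nuclear RNA activating complex, at 0.31 in A673 (adjusted p 0.177) and 0.95 in TC32 (5.18e-05). At 500 nM 16 fell in either line (82.5% of all genes in A673 and 62.9% in TC32), and 1 rose in A673, the cap-binding partner gene SRRT (0.46, adjusted p 0.026), which was not called without either A673 DMSO array or 500 nM replicate 1. The lowest were TBP, the TATA-binding protein, in A673 (-2.74, mean under 5.94) and TGS1, the enzyme that trimethylates the small nuclear RNA cap, in TC32 (-3.18, 9.03-fold lower). The list medians in A673 and TC32 were -0.76 and -0.20 for the lower dose (all tested genes -0.52 and -0.07) and -1.50 and -1.77 for the higher one (-0.73 and -0.64). On centred arrays the genes lower and higher numbered 5 and 4 in A673 and 7 and 4 in TC32 at 100 nM, and 10 and 4, and 11 and 2, at 500 nM. Among all genes the centred shares were 17.1% and 24.4%, then 21.2% and 30.6%, at 100 nM, and 27.4% and 29.6%, then 30.8% and 41.3%, at 500 nM.

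With DMSO alone, the 9 genes were higher in A673 than in TC32 in 6 cases and lower in 0, also at an unadjusted p under 0.05, while limma called 77.4% of all tested genes higher and 5.13% lower in A673. The gap was widest for INTS2 (1.40, adjusted p 1.16e-10) and INTS4 (1.16, adjusted p 1.11e-07). Without replicate 1 of the A673 DMSO arrays the count was 3. INTS3 (0.07, adjusted p 0.748) and INTS7 (0.20, 0.364) did not pass as deposited. On centred arrays 2 of the 9 were higher in A673 (33.9% of all genes), INTS2 by 0.71 and INTS4 by 0.47, and 3 were lower (21.4%), INTS3 (-0.62), INTS7 (-0.49) and INTS9 (-0.40). The INTS9 call ended without DMSO replicate 1 of A673 (adjusted p 0.112) or of TC32 (0.109). INTS6 means differed by 0.56 as deposited and by -0.13 relative to the array medians.

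Over the 12 arrays, after centring each on its median, the 5 tested genes with the highest Pearson r with INTS6 were HIF1AN (0.99), CEP68 (0.98), TRPC4 (0.98), XIAP (0.98) and INTS7 (0.98). HIF1AN encodes an oxygen-dependent hydroxylase, CEP68 a centrosome protein, TRPC4 a cation channel and XIAP an inhibitor of apoptosis. The A673 means of CEP68 under DMSO, 100 nM and 500 nM were 8.13, 5.67 and 5.57, the last 2 under 5.94, and those of XIAP were 9.87, 8.15 and 8.02. Among the other subunits r was 0.95 for INTS9 and INTS10, 0.94 for INTS5, 0.89 for INTS8, 0.52 for INTS2, 0.49 for INTS3, 0.12 for INTS4 and -0.78 for INTS1. These values describe arrays that share treatments and scaling.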

How the data were processed

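The authors deposited 1 table of log2 signals for 12 arrays. How they normalised it is not given in the sources used here. MAS5, GRCh37 and hg19 are listed, without a role, by the submitters' processing notes. Per the labels, ERCC control RNAs were added to total RNA, and whether arrays were scaled to them is not known. The DMSO labels carry a dose of 100 nM, read as not applying. Of 49395 probe sets, the 44994 annotated to 1 gene were considered. Entries whose 12 values had at most 2 decimals (2829 of all) were left out, a rule set with the choice of the 10 genes. The other entries repeat 1 set of values over the probe sets of nearly every gene. Symbols shared by identical values (116) were dropped, which left 16913 genes. The set of values with the highest mean stood for a gene, a choice that touched 10 genes. Genes with a mean at or above the 40th percentile were tested.

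All 12 arrays entered 1 limma 3.58.1 model of 6 group means (R 4.3.3; variance trend on the mean; two-sided; Benjamini-Hochberg adjusted p under 0.05), with tables made in Python 3.11.15 and pandas 2.3.3. Called, fell and rose mean past that threshold. Shares of all genes come from fits of all arrays, so counts with 1 array left out have no matching share beside them. Folds of genes with a mean under 5.94 are counted from that level. The prior degrees of freedom were infinite as deposited, so standard errors follow the mean signal alone. The model treats genes as independent although an offset of an array moves every gene on it, so its very small adjusted p-values overstate what 2 arrays per group can show. The number of arrays limits the precision. Data with 10148 genes were simulated for A673 at 100 nM against DMSO. In them 97 of 100 genes changed by 1 and 100 of 100 changed by 2 (log2) were recovered, with 7 false calls. Far fewer genes were changed there than the 58.7% of tested genes that limma called lower in the real comparison. The recovery and the false calls describe the simulation and are not error rates for these arrays, where an array offset moves every gene.

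The members and lists were chosen with earlier results of these data known. All 10 genes are named; from the other lists the lowest and highest values of each comparison with DMSO, the paralogue pairs, and the 5 genes most like INTS6. Genes also named were chosen after their values were seen. Alternatives tried were centring, other filters, no variance trend, only the groups compared, mean probe sets, the replicate block and each array left out.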

Additional observations from a re-analysis of the deposited data

Results flagged for a closer look

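The 100 nM effect on INTS2 differed between the lines when arrays were centred on their medians, by -1.27 (TC32 minus A673; limma adjusted p 0.00407), with both 100 nM arrays of each line below both DMSO arrays. As deposited the difference was -0.85 (adjusted p 0.0862), and the TC32 mean at 100 nM lay under 5.94.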

How the results depend on the processing

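Centring the arrays on their medians, with or without the replicate block, gave 1 gene higher in TC32 at 100 nM and 1 at 500 nM against DMSO, and 1 gene higher at 500 nM than at 100 nM in A673. In TC32 it gave 0 lower and 2 higher at 500 nM than at 100 nM. It gave 1 gene lower in the difference of the 100 nM effect between the lines, and 3 lower and 2 higher in A673 than in TC32 under DMSO. Fitting only the groups compared gave 7 genes lower at 500 nM than at 100 nM in TC32, and 1 lower and 3 higher in the difference of the 100 nM effect. The labels do not say whether the replicate numbers pair the samples. Same-numbered arrays deviated from their group means with correlations between -0.156 and 0.438 (median 0.044), 5 of 15 pairs of groups being over 0.1. These correlations do not settle whether samples were paired. With the replicate block as deposited, 1 gene was lower in the difference of the 100 nM effect, TC32 had 4 genes lower at 500 nM than at 100 nM, and the other counts of the 9 genes did not move. The cause of these changes was not tested. Apart from centring, shares of all genes called in these refits are not given, nor in those with 1 array left out below. The counts of those refits can therefore not be set against all genes.

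With each array left out in turn, genes lower than DMSO numbered 8 to 9 in A673 at 100 nM, 8 to 9 in A673 at 500 nM, 4 to 7 in TC32 at 100 nM and 7 to 9 in TC32 at 500 nM. Between the doses 0 to 6 were lower and 0 to 2 higher in A673, and 0 to 7 lower and 0 to 1 higher in TC32. In the difference between the lines 0 to 1 were lower and 0 to 3 higher at 100 nM, and 0 to 1 lower and 0 to 2 higher at 500 nM. Under DMSO 3 to 6 were higher in A673. On centred arrays, an alternative chosen after seeing the data, genes lower than DMSO numbered 5 to 8 and 5 to 6 in A673 at 100 nM and 500 nM, and 7 and 4 to 6 in TC32. Genes higher numbered 0 in A673 at both doses, and 0 to 1 and 1 in TC32. Under DMSO 2 to 3 were lower in A673 and 2 higher.

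The sign turned on centred arrays, to the same value with the replicate block, for INTS1 (0.23 in A673 at 100 nM, 0.14 at 500 nM, 0.48 in TC32 at 500 nM), INTS3 (0.056 and 0.038 at 500 nM in A673 and TC32, -0.62 under DMSO) and INTS4 (0.22 in TC32 at 500 nM). Between the doses it turned for INTS5 (0.098 in A673, 0.027 in TC32) and INTS7 (0.21 and 0.084), and in TC32 for INTS1 (0.15), INTS4 (0.26), INTS8 (0.20), INTS9 (0.029) and INTS10 (0.17). Under DMSO it turned for INTS6 (-0.13), INTS7 (-0.49), INTS8 (-0.087), INTS9 (-0.404, and -0.403 with the block) and INTS10 (-0.09). Leaving out 1 array turned the step between the doses in A673 for INTS2 (range -0.56 to 0.018), INTS4 (-0.243 to 0.307, with -0.003 without 100 nM replicate 2), INTS6 (-0.26 to 0.37), INTS10 (-0.508 to 0.068), INTS5 (-0.43 to 0.20), INTS7 (-0.22 to 0.21, with 0.13 without 100 nM replicate 1) and INTS8 (-0.35 to 0.44), and in TC32 for INTS6 (-0.022 to 0.09) and INTS3 (-0.032 to 0.077, with -0.011 without 500 nM replicate 2). Differences of INTS6 from DMSO ranged from -3.59 to -2.63 over the arrays left out. Signals near 5.94 and 2 arrays per group limit all of these values.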
